A study of Mus musculus with 2 samples.

Results

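The 9 genes described here are the Notch receptors Notch1, Notch2 and Notch3, the ligand Jag1, the nuclear mediator Rbpj, and the target genes Hes1, Hey1, Heyl and Nrarp. They are a list fixed by name, chosen with earlier results of these data known, and all 9 are among the 31055 features of both count matrices. They were measured in periosteal cells of Prx1Cre;mTmG mice by 10x 3′ single-cell RNA sequencing, in 1 library from periosteum at day 3 after tibial fracture and 1 library from uninjured periosteum. Both libraries come from the same genotype. In these mice a Cre under Prx1 regulatory sequence, active in limb mesenchyme, turns a membrane tdTomato reporter into membrane EGFP, so that EGFP transcripts mark the Prx1 lineage. Cells left bone fragments in explant culture with serum and bFGF at 33 °C. The labels' growth protocol gives 80% confluence, whereas the design text speaks of no expansion. All live cells were loaded, so cells outside the lineage are present although the source label names Prx1-derived cells. The sources used here give neither the age nor the sex and number of the mice.

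Notch receptors are cut after they bind a ligand on a neighbouring cell. The ADAM proteases make the first cut and gamma-secretase the second, and the released intracellular domain binds RBPJ and a Mastermind protein on DNA to switch on targets such as Hes1, Hey1, Heyl and Nrarp. Without that domain RBPJ sits with corepressors. In bone, Notch signalling is known for holding back the maturation of skeletal progenitors and for acting on the macrophage and osteoclast lineage.

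The libraries differ in more than the injury. After filtering, 12790 day-3 cells and 4274 uninjured cells remained, with medians of 7466 UMIs and 19411 UMIs per cell and of 4.30% and 2.74% mitochondrial UMIs. Of 16332 barcodes at day 3 and 4573 in the uninjured library, the libraries shared 3. Cells with a UMI of a Y-linked gene and none of Xist made up 435 of 3243 EGFP lineage cells at day 3, against 1834 of 2202 in the uninjured library. With 1 library per group, injury, library preparation, animals, sex and depth cannot be told apart, and no test can be made between the groups. Intervals below cover counting error only.

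EGFP lineage cells (3243 at day 3 and 2202 uninjured), C1q macrophages (6204 and 1183) and osteoclasts (595 and 239) were clusters named from marker lists. Their class totals were 110419653 UMIs at day 3 and 57401645 UMIs uninjured in lineage cells, 33992940 and 12397214 UMIs in C1q macrophages, and 9611419 and 4086737 UMIs in osteoclasts. In lineage cells all 10 mesenchymal markers reached 10 CPM (UMIs of a gene per 1000000 UMIs of the class) in both libraries, and EGFP stood at 1863 CPM at day 3 and 2568 CPM uninjured. In C1q macrophages all 10 macrophage markers reached 10 CPM in both libraries, and in osteoclasts 9 of 10 osteoclast markers did. Different clusters hold most of a class in each library. Day-3 lineage cells were clusters 4, 5, 9, 18 and 21, against 6, 13, 15 and 18 in the uninjured library. Day-3 C1q macrophages were clusters 0, 1, 2, 7 and 10 with 57 cells of cluster 3, whereas uninjured C1q macrophages were almost wholly cluster 3 (1131 cells). Day-3 osteoclasts were cluster 11 (590 cells), against 78 cells of cluster 11 and 161 of cluster 20 in the uninjured library. Cluster 20 held osteoclast markers at 1009 CPM, below its macrophage markers at 1415 CPM, and C1q genes at 792 CPM, whereas cluster 11 held osteoclast markers at 11065 CPM. Day-3 cluster 8 (863 cells) was near cluster 20 in these sums, at 996, 1644 and 748 CPM, but was left unnamed. The osteoclast ratios thus set day-3 cluster 11 mostly against uninjured cells of cluster 20. The unnamed clusters held 10.6% of day-3 and 14.8% of uninjured cells and enter none of the classes.

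RefSeq promoter windows of GRCm38.p6 were found for 6 of the 9 genes (not Hes1, Hey1 or Heyl). Those of Rbpj, Notch1 and Jag1 are printed because these 3 genes were at least 2-fold higher together in day-3 C1q macrophages. Each runs from 250 bases before to 50 bases after a RefSeq transcript start: chr5:53590096-53590395 on the plus strand for Rbpj, chr2:26503773-26504072 on the minus strand for Notch1 and chr2:137116471-137116770 on the minus strand for Jag1. All 3 starts lie inside the GENCODE gene spans given further on. Capitals mark TGGGAA, the core of the RBPJ binding motif, searched on both strands, where it reads TTCCCA on the other.
Rbpj: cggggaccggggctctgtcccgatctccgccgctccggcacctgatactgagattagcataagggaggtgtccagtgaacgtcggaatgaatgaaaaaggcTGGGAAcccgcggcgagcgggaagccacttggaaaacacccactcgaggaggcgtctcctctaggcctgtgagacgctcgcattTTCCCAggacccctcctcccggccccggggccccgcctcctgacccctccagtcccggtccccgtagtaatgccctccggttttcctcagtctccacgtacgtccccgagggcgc
Notch1: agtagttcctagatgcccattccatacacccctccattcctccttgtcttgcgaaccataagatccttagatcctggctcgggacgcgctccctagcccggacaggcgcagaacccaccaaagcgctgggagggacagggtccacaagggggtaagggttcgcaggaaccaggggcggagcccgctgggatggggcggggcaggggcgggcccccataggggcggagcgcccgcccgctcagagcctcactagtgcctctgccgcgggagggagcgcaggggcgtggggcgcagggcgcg
Jag1: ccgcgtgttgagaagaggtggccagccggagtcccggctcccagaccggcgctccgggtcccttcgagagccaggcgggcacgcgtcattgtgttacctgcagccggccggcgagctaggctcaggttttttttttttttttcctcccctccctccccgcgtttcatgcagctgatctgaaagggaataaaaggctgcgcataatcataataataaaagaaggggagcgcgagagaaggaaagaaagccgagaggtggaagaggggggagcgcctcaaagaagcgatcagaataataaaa
The Rbpj window held 2 matches, 149 bases before the start on the gene's strand and 65 bases before it on the other strand. It is the first of a pair of overlapping RefSeq windows for Rbpj. The other, chr5:53590236-53590535, held 1 match, 205 bases before its start on the other strand. That match is the same site as the second match of the printed window. The Notch1 and Jag1 windows held none, nor did those of Notch2, Notch3 and Nrarp. Of 32851 RefSeq windows of 300 bases, 25.6% held at least 1 match and 3.79% at least 2, and a match describes letters, not a bound site.

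Of the 9 genes, 4 reached 10 CPM in the higher library in each class: Notch1, Notch2 and Rbpj in all 3 classes, joined by Hes1 in lineage cells and by Jag1 in C1q macrophages and osteoclasts. In lineage cells 3 of these 4 (Notch1, Hes1 and Rbpj) were at least 2-fold higher at day 3, where 17.1% of 8115 genes at 10 CPM or more were. In C1q macrophages Notch1, Jag1 and Rbpj were, where 33.2% of 8281 genes were, and with scaling by trimmed means of M-values (TMM) Notch1 and Jag1 were, where 12.9% of 8133 genes were. In osteoclasts Notch1 alone was, where 19.2% of 7776 genes were. None of the 9 passed both 10 CPM and a 2-fold lower level, a call made for 6.35%, 4.32% and 5.44% of all genes in lineage cells, C1q macrophages and osteoclasts. Notch1 in lineage cells, and Notch1 and Jag1 in osteoclasts, passed 10 CPM through the day-3 library only, so a higher day-3 level was built into their passing. The median log2 ratio of all genes was 0.18 in lineage cells, 0.65 in C1q macrophages and 0.37 in osteoclasts, and TMM scaling lowers each ratio by 0.06, 0.47 and 0.23, so a ratio near these values is not set apart from the bulk of genes.

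**Figure D1:**
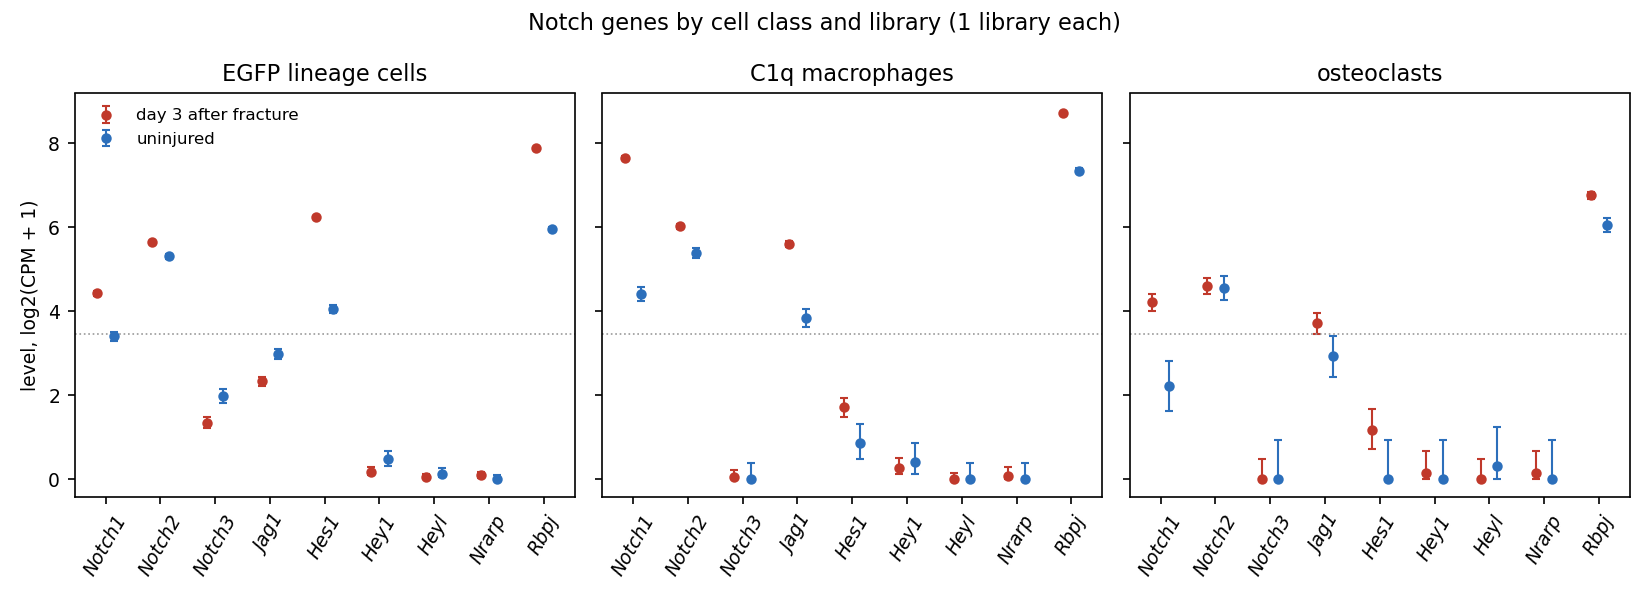
Level of each of the 9 genes as log2(CPM + 1), in 3 panels by cell class, with day 3 after fracture (red, left of each pair) and uninjured (blue, right). Points are 1 library each, bars are exact Poisson 95% intervals, and the dotted line marks 10 CPM. Notch1 stood at 199 CPM in day-3 C1q macrophages, above the uninjured macrophages and both other classes, and Hes1 was at 10 CPM or more in lineage cells only.

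Notch1 (chr2:26457903-26516663, minus strand), the receptor with the widest known roles in blood and mesenchymal cells, had its highest level in day-3 C1q macrophages. There it stood at 199 CPM (6772 UMIs), against 20.2 CPM (251 UMIs) in uninjured C1q macrophages, a ratio of 9.84 (95% interval 8.67 to 11.2). In lineage cells it stood at 20.4 CPM at day 3 and 9.56 CPM uninjured, a ratio of 2.14 (1.95 to 2.35). In osteoclasts it stood at 17.5 CPM (168 UMIs) at day 3 and 3.67 CPM (15 UMIs) uninjured, a ratio of 4.76 (2.81 to 8.70). C1q macrophages thus held 9.75 times the Notch1 level of lineage cells at day 3 (9.29 to 10.2) and 2.12 times in the uninjured library (1.82 to 2.46). At day 3 lineage cells and osteoclasts did not differ beyond counting error in Notch1, with a ratio of lineage cells over osteoclasts of 1.17 (0.999 to 1.38).

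The day-3 Notch1 level of macrophages depended on the cluster. Cluster 1, led by Mmp12, Cd36 and Lgmn and shallow at a median of 1962 UMIs, held 377 CPM, and cluster 0, led by Arg1, Mmp8 and F13a1, held 309 CPM. Cluster 10 held 199 CPM, and clusters 2 and 7 both held 115 CPM. The 57 day-3 cells of cluster 3, the cluster that holds the uninjured C1q macrophages, stood apart from these. Their Notch1 level was 18.6 CPM (3 UMIs), against 19.9 CPM (241 UMIs) in the uninjured cells of cluster 3, a ratio of 0.933 (0.191 to 2.76) whose interval lies below the ratio of the whole class. These 57 cells had a median of 1642 UMIs, against 10269 UMIs in the uninjured cells. Dividing cells, those with at least 3 UMIs of 15 mitotic genes after thinning to 3000 UMIs, held less Notch1 than the others in day-3 C1q macrophages, with 116 CPM against 211 CPM. Neutrophils (cluster 16) held Notch1 at 85.6 CPM. Neutrophil markers moved with the library, and summed to 313 CPM in day-3 and 27.4 CPM in uninjured C1q macrophages. The same markers summed to 208 CPM in day-3 and 10.6 CPM in uninjured lineage cells, and to 589 CPM in day-3 and 7.83 CPM in uninjured osteoclasts. The part of neutrophil transcripts in the Notch1 ratios was not tested in any of the 3 classes.

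Transcripts of macrophages were also counted at a low level in lineage cells. The C1q genes, Ptprc, Adgre1, Csf1r and Mrc1 were found in lineage cells at 0.433% to 1.38% of their macrophage level at day 3. In the uninjured library they were at 0.916% to 2.26%. Notch1 was at 10.3% of its macrophage level at day 3 and at 47.2% uninjured. What part of the lineage Notch1 UMIs came from macrophages was not tested. After thinning to 3000 UMIs per cell, 41.4% of day-3 C1q macrophages had a Notch1 UMI (39.9% to 42.9%, Clopper-Pearson, 1836 shallower cells left out), against 6.31% of uninjured ones (4.95% to 7.90%, 73 left out). Unthinned, the shares were 56.3% and 18.3%. In lineage cells the thinned shares were 5.72% at day 3 and 2.78% uninjured. Male cells alone gave a log2 ratio of 0.65 for Notch1 in lineage cells, under 2-fold, where all cells gave 1.10.

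Notch2 (chr3:98013527-98150361, plus strand), a receptor known in bone from the human disorder of bone loss caused by its stabilising mutations, was the most even member. Its level was 48.8 CPM at day 3 and 38.5 CPM uninjured in lineage cells, a ratio of 1.27 (1.21 to 1.33). In C1q macrophages it was 63.7 CPM at day 3 and 40.7 CPM uninjured, a ratio of 1.57 (1.42 to 1.73), or 0.65 on the log2 scale, the same as the median of all genes there. In osteoclasts it was 23.3 CPM at day 3 and 22.5 CPM uninjured, a ratio of 1.04 (0.809 to 1.33). Uninjured C1q macrophages and lineage cells did not differ in Notch2 beyond counting error, with a ratio of macrophages over lineage cells of 1.05 (0.956 to 1.16), and osteoclasts were lowest in both libraries. Among day-3 lineage clusters Notch2 was highest in cluster 9, led by Nppc, Mmp3 and Crabp1, at 75.6 CPM, against 43.2 CPM in cluster 4 and 39.6 CPM in cluster 5. In cluster 18, led by Tagln, Acta1 and Serpinb2, it was 7.41 CPM at day 3 (16 UMIs) and 1.18 CPM uninjured (1 UMI).

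Notch3 (chr17:32120820-32166852, minus strand), a receptor best known in the mural cells of vessels, was sparse and was seen in lineage cells. There 170 UMIs in each library gave 1.54 CPM at day 3 and 2.96 CPM uninjured, a ratio of 0.520 (0.418 to 0.647), or -0.94 on the log2 scale. That log2 ratio was -0.20 with equal weight per cell and -1.64 in male cells, the ends of its range over the settings tried. C1q macrophages held 1 UMI at day 3 and 0 uninjured, and osteoclasts 0 in both, which allows up to 0.312 CPM in day-3 and 0.734 CPM in uninjured osteoclasts. Lineage cells were at least 12.2-fold above C1q macrophages in the uninjured library, taken against 3 counts. Of the 6 pericyte markers only Cspg4 reached 10 CPM in lineage cells (26.1 CPM at day 3 and 11.6 CPM uninjured), Higd1b was at 0 in both libraries, and the list summed to 31.3 CPM and 12.4 CPM at day 3 and uninjured. Their part in the Notch3 levels was not tested. Cluster 21, led by Col2a1 and Acan and the shallowest lineage cluster at a median of 1170 UMIs, had 19.1 CPM of Notch3 from 4 UMIs.

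Jag1 (chr2:137081456-137116644, minus strand), a transmembrane ligand of Notch receptors, differed in direction between classes. In C1q macrophages it stood at 47.5 CPM at day 3 and 13.2 CPM uninjured, a ratio of 3.59 (3.05 to 4.24). In osteoclasts it stood at 12.1 CPM (116 UMIs) at day 3 and 6.61 CPM (27 UMIs) uninjured, a ratio of 1.83 (1.19 to 2.89). In lineage cells it stood under 10 CPM, at 4.04 CPM (446 UMIs) at day 3 and 6.86 CPM (394 UMIs) uninjured, a ratio of 0.588 (0.513 to 0.676). C1q macrophages held 11.8 times the lineage level at day 3 (10.6 to 13.1) and 1.93 times in the uninjured library (1.60 to 2.32), while uninjured lineage cells over osteoclasts gave 1.04 (0.703 to 1.60), not different beyond counting error. Jag1 was highest in macrophage cluster 10, led by Mmp12, Il7r and Cd36, at 93.8 CPM, followed by cluster 1 at 69.4 CPM, and lay between 36.7 and 44.0 CPM in clusters 0, 2 and 7. In cluster 3 the 57 day-3 cells held 12.4 CPM (2 UMIs) and the uninjured cells 13.2 CPM (160 UMIs), a ratio of 0.937 (0.113 to 3.44), whose upper bound lies just under the ratio of the class. In day-3 lineage cells Jag1 was at 8.51% of its macrophage level, beside 0.433% to 1.38% for the macrophage markers. What part of the lineage Jag1 UMIs came from macrophages was not tested. After thinning, 11.6% of day-3 and 3.96% of uninjured C1q macrophages had a Jag1 UMI.

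**Figure D2:**
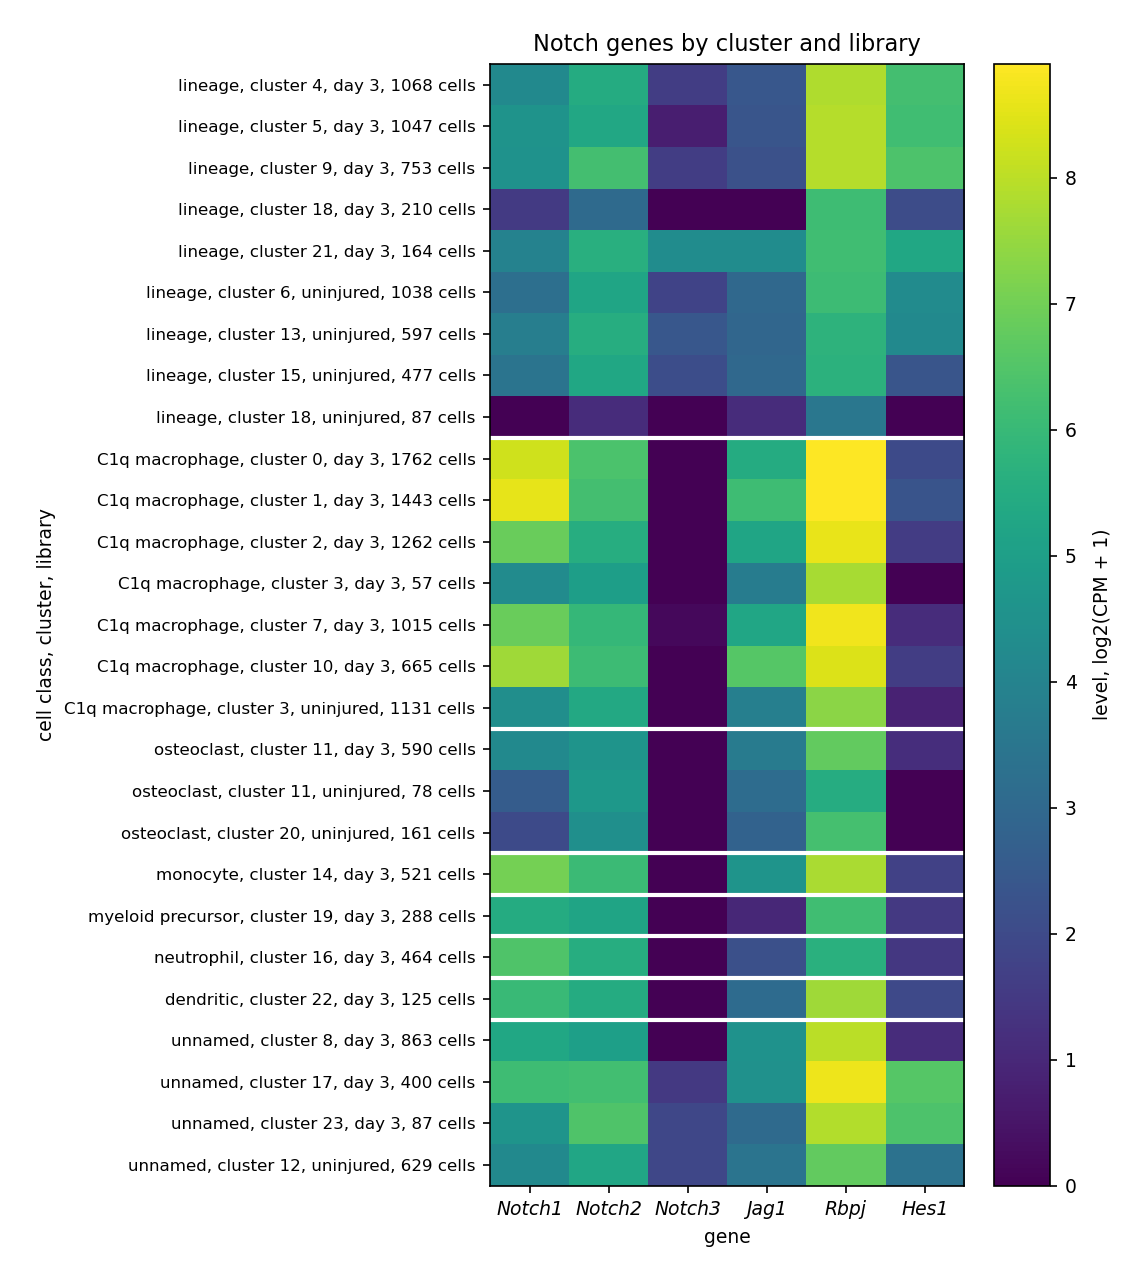
Level of 6 of the genes as log2(CPM + 1) (colour) in each cluster and library with at least 50 cells, grouped by cell class with day 3 above uninjured where a class has both. Notch1, Jag1 and Rbpj were high in the large day-3 C1q macrophage clusters and lower in cluster 3 of both libraries, and Hes1 was high in the day-3 lineage clusters 4, 5 and 9.

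Rbpj (chr5:53466152-53657362, plus strand), the DNA-binding protein through which all Notch receptors act, was higher at day 3 in all 3 classes. In lineage cells it stood at 233 CPM at day 3 and 61.0 CPM uninjured, a ratio of 3.83 (3.69 to 3.96). In C1q macrophages it stood at 420 CPM at day 3 and 161 CPM uninjured, a ratio of 2.60 (2.48 to 2.73), and in osteoclasts at 107 CPM at day 3 and 65.3 CPM uninjured, a ratio of 1.64 (1.43 to 1.88). With TMM scaling the log2 ratio in C1q macrophages was 0.91, under 2-fold, against 1.38 unscaled. In osteoclasts Rbpj passed 2-fold in 6 of 13 other settings, with log2 ratios from 0.48 to 1.47 against 0.71. The mouse annotation also holds processed pseudogenes of Rbpj, and the sources used here do not say how reads shared with near-identical copies were counted.

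The 3 large day-3 lineage clusters were close to each other in Rbpj, from 231 CPM in cluster 4 to 242 CPM in cluster 5. The 3 large uninjured ones lay from 51.3 CPM to 68.0 CPM, and day-3 cluster 21 held 71.5 CPM (15 UMIs). The clusters present in both libraries gave different values. In cluster 18 of the lineage Rbpj was 69.5 CPM (150 UMIs) at day 3 and 10.6 CPM (9 UMIs) uninjured, a ratio of 6.57 (3.37 to 14.7). In osteoclast cluster 11 it was 107 CPM at day 3 and 44.5 CPM uninjured, a ratio of 2.40 (1.86 to 3.16). In macrophage cluster 3 it was 210 CPM (34 UMIs) at day 3 and 162 CPM uninjured, a ratio of 1.30 (0.898 to 1.82), not different beyond counting error. In the same osteoclast cluster Notch1 was 17.5 CPM at day 3 and 5.02 CPM (7 UMIs) uninjured, a ratio of 3.49 (1.66 to 8.82), while Notch2 was 23.2 CPM at day 3 and 25.8 CPM uninjured and Jag1 was 12.1 CPM at day 3 and 7.89 CPM uninjured, neither different beyond counting error. After thinning, 48.4% of day-3 and 16.1% of uninjured lineage cells had an Rbpj UMI, 70.8% and 38.8% of C1q macrophages, and 29.7% and 18.3% of osteoclasts. Day-3 dividing and other lineage cells held Rbpj at 243 CPM and 229 CPM.

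Hes1 (chr16:30064384-30067796, plus strand), a transcriptional repressor and the best known Notch target, was a gene of the lineage cells. It stood at 74.2 CPM (8190 UMIs) at day 3 and 15.6 CPM (894 UMIs) uninjured, a ratio of 4.76 (4.44 to 5.11). Clusters 4, 5 and 9 at day 3 held 75.0, 71.1 and 83.8 CPM. In the uninjured library clusters 6 and 13 held 18.4 and 17.7 CPM, and cluster 15, whose markers were those of tenocytes, held 4.07 CPM. Cluster 18 held 3.24 CPM (7 UMIs) at day 3 and 0 UMIs uninjured, which allows up to 3.53 CPM. Cluster 21 held 38.1 CPM from 8 UMIs. Dividing lineage cells held 73.0 CPM and the others 74.9 CPM at day 3, so Hes1 was as high in cells outside division there. In the uninjured library dividing lineage cells held 19.1 CPM (17.2 to 21.3) and the others 14.0 CPM (12.8 to 15.2). The share of lineage cells with a Hes1 UMI at 3000 UMIs was 17.6% at day 3 (16.2% to 19.0%) and 3.87% uninjured (upper bound 4.76%), and unthinned 59.1% and 22.0%.

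Hes1 was also counted in the other classes, at shares of its lineage level whose intervals held those of the lineage genes given beside them. In day-3 C1q macrophages Hes1 stood at 2.27 CPM (77 UMIs), which is 3.05% of its lineage level (2.41% to 3.82%), beside 2.98% for EGFP, 3.74% for Col1a1 and 3.56% for Prrx1. In uninjured C1q macrophages it stood at 0.807 CPM (10 UMIs), 5.18% of the lineage level (2.48% to 9.57%), beside 3.94%, 3.29% and 3.02%. In day-3 osteoclasts 12 UMIs made 1.68% of the lineage level (0.869% to 2.94%), beside 1.65% for EGFP, and uninjured osteoclasts held 0 UMIs. The macrophage ratio of 2.81 (1.45 to 6.09) rests on these 77 and 10 UMIs, and whether they come from macrophages or from free lineage RNA was not tested. At 3000 UMIs 0.755% of day-3 C1q macrophages had a Hes1 UMI, where 13.2% had one of EGFP. Lineage cells thus stood 32.7-fold above C1q macrophages at day 3 (26.2 to 41.5) and 19.3-fold in the uninjured library (10.4 to 40.4).

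The other targets were barely counted in the 3 classes. Hey1 (chr3:8663359-8667256, minus strand), a repressor related to Hes1, had 14 UMIs at day 3 and 22 UMIs uninjured in lineage cells, 0.127 CPM and 0.383 CPM, a ratio of 0.331 (0.157 to 0.676). It had 7 and 4 UMIs in C1q macrophages and 1 and 0 UMIs in osteoclasts. Heyl (chr4:123233556-123249875, plus strand), of the same family, had 4 and 5 UMIs in lineage cells, 0 and 0 in C1q macrophages, and 0 and 1 in osteoclasts, at day 3 and uninjured in each case. Nrarp (chr2:25180758-25183339, plus strand), a small feedback inhibitor of Notch signalling, had 7 and 0 UMIs in lineage cells, 2 and 0 in C1q macrophages, and 1 and 0 in osteoclasts. At this depth no difference in Heyl or Nrarp was detectable in any class. Day-3 lineage cells held Nrarp at 0.0634 CPM, and the 0 UMIs of uninjured lineage cells allow up to 0.0523 CPM. Of the 4 targets, Hes1 was the only one at 10 CPM or more in any class. Outside the classes, unnamed cluster 23 (87 day-3 cells) held Hey1 at 1.25 CPM (5 UMIs). Heyl was 2.01 CPM (8 UMIs) there and Nrarp 1.00 CPM (4 UMIs).

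**Figure D3:**
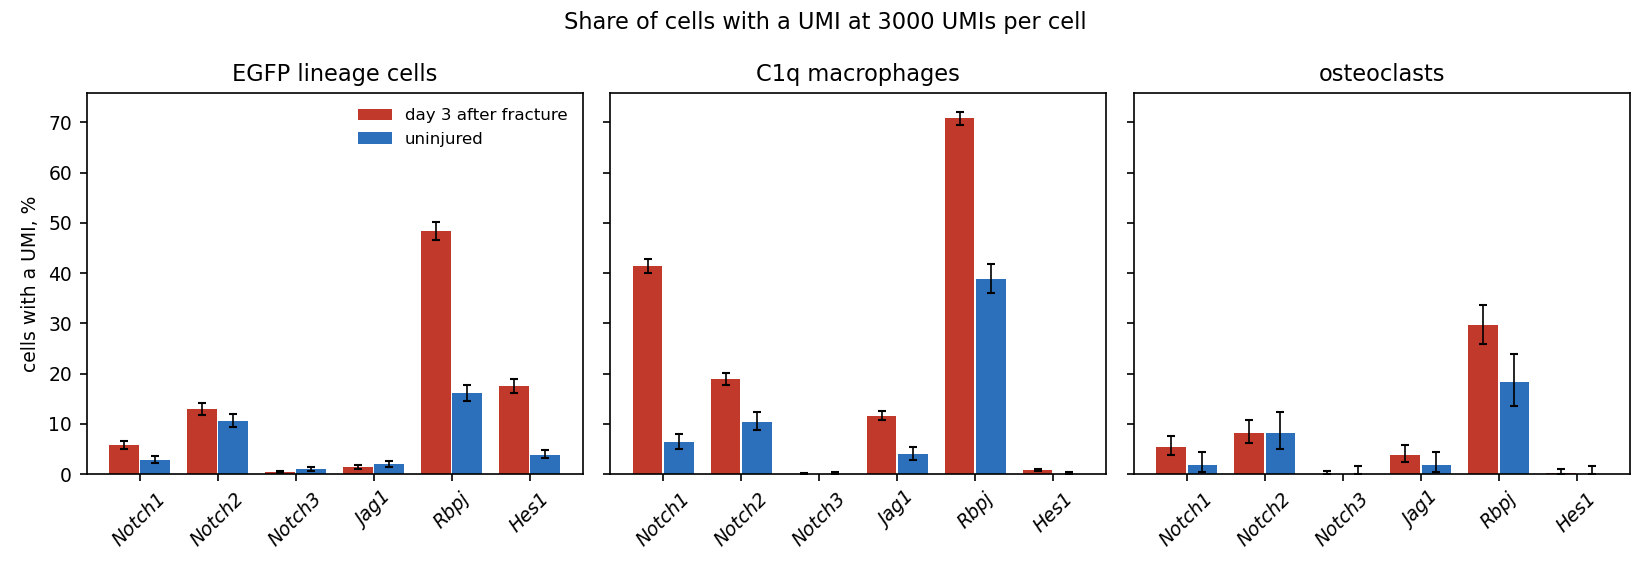
Share of cells with a UMI of 6 of the genes after thinning to 3000 UMIs, by class, with day 3 after fracture (red, left) and uninjured (blue, right). Cells with fewer UMIs were left out, among them 1836 day-3 and 73 uninjured C1q macrophages. Bars are 1 library each and whiskers are Clopper-Pearson 95% intervals. Notch1 was found in 41.4% of day-3 and 6.31% of uninjured C1q macrophages, and Hes1 in 17.6% and 3.87% of lineage cells and in under 1% of macrophages and osteoclasts.

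In the large day-3 classes the genes were found together about as often as their shares alone give. Of day-3 lineage cells with a Notch2 UMI, 17.9% had a Hes1 UMI, against 17.6% of all. Of those with an Rbpj UMI, 18.4% had one. Of day-3 C1q macrophages with a Notch1 UMI, 10.7% had a Jag1 UMI, against 11.6% of all, and 73.1% had an Rbpj UMI, against 70.8% of all. In uninjured lineage cells 1.41% of those with an Rbpj UMI had a Hes1 UMI (5 cells), against 3.87% of all. These are shares at 3000 UMIs per cell, where most transcripts of a cell are not seen.

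Across 27 cluster and library profiles of at least 50 cells, which share libraries and depth, the Pearson correlation of log2(CPM + 1) was 0.79 between Notch1 and Rbpj, 0.735 between Notch1 and Jag1 and 0.715 between Notch3 and Hes1, against 0.058 between Notch1 and Hes1. Among 8974 genes, those most like Notch1 were Snx18 (0.960), Zfp516 (0.955) and Cpeb2 (0.947). Those most like Jag1 were Zdhhc9 (0.968), Necap1 (0.923) and Acp2 (0.919), and those most like Rbpj were Prkacb (0.955), Fam91a1 (0.949) and Ptp4a2 (0.942). Adam19 (0.967), Eda2r (0.963) and Chic1 (0.960) were most like Hes1, Gpr107 (0.948), Gsk3b (0.945) and Rsf1 (0.935) most like Notch2, and Tro (0.978), Adamts4 (0.959) and Gxylt2 (0.956) most like Notch3. Notch3 reached 10 CPM in 1 profile only, that of cluster 21 with 4 UMIs, and was at 0 in 16 of the 27. Its correlations therefore rest on few counts. Hey1, Heyl and Nrarp stayed under 10 CPM in every profile and were given no likeness.

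Of 46 other genes of the pathway, 25 reached 10 CPM in lineage cells, 27 in C1q macrophages and 25 in osteoclasts. Their median log2 ratio was 0.21 in lineage cells, beside 0.18 for all genes, 0.99 in C1q macrophages, beside 0.65, and 0.80 in osteoclasts, beside 0.37. In lineage cells 5 were at least 2-fold higher and 3 lower at day 3, beside the 17.1% and 6.35% of all genes. In C1q macrophages 13 were higher and 0 lower, beside 33.2% and 4.32%. With TMM scaling these were 5 higher (Adam17, Maml1, Maml2, Mib1 and Spen) and 1 lower (Psenen, a subunit of gamma-secretase, at a log2 ratio of -1.38, against -0.91 unscaled), beside 12.9% and 13.1% of all genes. The other 8 genes of the 13 were then under 2-fold. In osteoclasts 9 were higher and 0 lower, beside 19.2% and 5.44%. With TMM scaling 7 were higher there, beside 10.9% of 7728 genes, Lfng and Itch being under 2-fold. A set of 14 stayed under 10 CPM in every class, including the ligands Dll1, Dll3, Dll4 and Jag2 and the targets Hes5 and Hey2, so Jag1 was the only Notch-activating ligand of the Delta and Jagged families at 10 CPM or more in any of the classes.

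The 13 genes higher at day 3 in C1q macrophages included proteases and a sugar transferase that act on the receptors. Adam10, a protease that makes the first cut, stood there at 173 CPM at day 3 and 63.1 CPM uninjured, and Adam17 at 159 CPM and 44.4 CPM. Aph1c, a subunit of gamma-secretase, stood at 26.8 CPM at day 3 and 10.6 CPM uninjured. Pofut1, which adds the fucose that receptors need, was 24.5 CPM at day 3 and 12.1 CPM uninjured. With TMM scaling the log2 ratios of Adam10, Aph1c and Pofut1 there were 0.98, 0.86 and 0.55, under 2-fold, against 1.45, 1.33 and 1.02 unscaled, while that of Adam17 was 1.37. In lineage cells Adam10 stood at 70.4 CPM at day 3 and 30.1 CPM uninjured.

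Mib1, Maml3 and Spen were at least 2-fold higher at day 3 in all 3 classes, where 7.82% of the 6587 genes at 10 CPM or more in each class were. With TMM scaling Mib1 and Spen were, where 3.59% of all genes were, and the log2 ratio of Maml3 in C1q macrophages was 0.93. Mib1, the ubiquitin ligase that ligands need for activity, stood at 45.4 CPM at day 3 and 17.8 CPM uninjured in lineage cells, at 111 CPM and 29.7 CPM in C1q macrophages, and at 69.1 CPM and 28.6 CPM in osteoclasts. Maml3, a Mastermind coactivator, had ratios of 2.85 in lineage cells, 2.63 in C1q macrophages and 3.49 in osteoclasts. Its uninjured levels were 4.08, 6.70 and 3.67 CPM, so that it passed 10 CPM through the day-3 library only in each class. Its relatives Maml1 and Maml2 had ratios of 3.36 and 3.49 in C1q macrophages, where their uninjured levels of 6.78 and 6.37 CPM mean the same, as does that of Spen in lineage cells, at 7.18 CPM. Spen, a corepressor that binds RBPJ, had ratios of 4.11, 4.06 and 2.93 in lineage cells, C1q macrophages and osteoclasts.

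Genes known to restrain or modify the pathway differed in both directions. Dlk1, a non-canonical ligand that is known to inhibit Notch and marks progenitors, had the lowest ratio of the list in lineage cells, 0.207 (0.196 to 0.219). Dlk1 levels there were 17.0 CPM at day 3 and 81.8 CPM uninjured. Its relative Dlk2 was 4.48 CPM at day 3 and 11.8 CPM uninjured, and Dtx3, a Deltex-family ubiquitin ligase, 12.8 CPM and 27.2 CPM. Numb and Itch, which promote removal of the receptor, had ratios of 2.48 and 2.54 in C1q macrophages, and Itch 2.26 in osteoclasts, each under 2-fold with TMM scaling. Dtx4 was 43.7 CPM at day 3 and 17.3 CPM uninjured in C1q macrophages, under 2-fold with TMM scaling (log2 ratio 0.86), and 90.6 CPM and 25.7 CPM in osteoclasts.

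In osteoclasts 9 genes of the list were at least 2-fold higher at day 3, among them a receptor and a modifier of receptors. The receptor Notch4 was 12.2 CPM (117 UMIs) at day 3 and 3.43 CPM (14 UMIs) uninjured, a ratio of 3.55 (2.04 to 6.70), so that it passed 10 CPM through the day-3 library only. In C1q macrophages it was 2.03 CPM at day 3 and 1.13 CPM uninjured, and in lineage cells 1.67 CPM and 0.767 CPM. Lfng, a glycosyltransferase that changes which ligands a receptor answers to, was 100 CPM at day 3 and 44.3 CPM uninjured, a ratio of 2.26 (1.93 to 2.67) that was 0.94 on the log2 scale with TMM scaling, under 2-fold, while C1q macrophages held it at 85.8 CPM at day 3 and 47.1 CPM uninjured. Psen2, a catalytic subunit of gamma-secretase, had a ratio of 2.38 there. Endothelial cells are known for Notch4. Their markers summed to 1.98 CPM at day 3 and 0.979 CPM uninjured in osteoclasts, with Emcn, Tek and Tie1 at 0. Their part in the Notch4 levels was not tested.

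**Figure D4:**
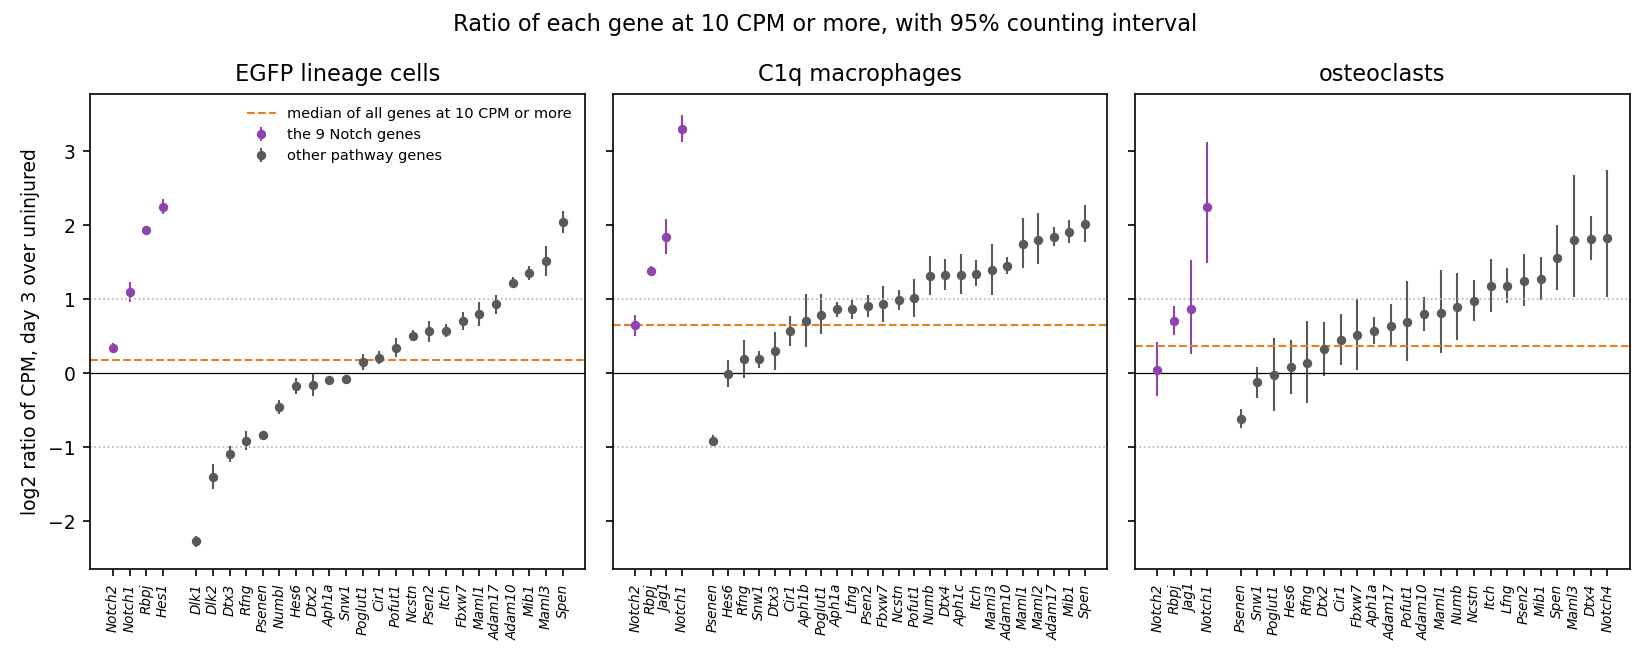
Log2 ratio of CPM, day 3 over uninjured, for each of the 9 genes (purple) and the other pathway genes reported here (grey) that reached 10 CPM in either library, by cell class. Points come from 1 library per group, bars are 95% counting intervals, the dashed line is the median of all genes and the dotted lines mark 2-fold. Notch1 in C1q macrophages had the highest ratio of the plotted genes (9.84, or 3.30 on the log2 scale), and Dlk1 in lineage cells the lowest (0.207, or -2.27).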

How the data were processed

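Per the file headers and their whole-number values, the deposited matrices hold raw UMI counts for each gene in each barcode, which the authors had not normalized. The submitters' processing notes name Seurat 4.0.1, Cell Ranger and mm10, and software version 3.1.0 stands in the header of the matrices. The sources used here do not say how the authors called cells.

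Barcodes under 500 genes or 1000 UMIs (1412 at day 3, 69 uninjured) or over 10% mitochondrial UMIs (457 and 73) were removed. The automatic threshold of Scrublet marked 0 cells, so the highest scores were removed at 0.8% per 1000 barcodes (1673 and 157). Cells were scaled to 10000 counts and clustered together in scanpy 1.11.5 (2000 variable genes without the Notch pathway genes, 30 components, 15 neighbours, Leiden with leidenalg 0.10.2, resolution 1, seed 0), with no batch integration. Clusters were named from 19 marker lists, and a score margin of 0.5 between types was set after the clusters were seen.

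UMIs were summed per class and library and given as CPM with exact Poisson intervals, and ratios of day 3 over uninjured carry exact conditional binomial intervals. Calls need a 2-fold difference and 10 CPM in at least 1 library. A count of 0 allows up to 3 counts. The steps were tested on simulated data. TMM factors came from edgeR 4.0.16. Scripts ran in Python 3.11.15 with pandas 2.3.3, scipy 1.17.1, numpy 2.4.6 and matplotlib 3.10.9. Of the features, 30934 of 31055 were found in GENCODE M21 (GRCm38). The members and lists were chosen with earlier results of these data known. The genes named are the 9 members, the other pathway genes at 10 CPM or more and at least 2-fold apart in a class, and the 3 genes most like each member by Pearson correlation over profiles of at least 50 cells, at 20 CPM or more in at least 1 of them. Some pathway genes are counted but not reported here by name. Genes named only to describe clusters, as checks of other cell types or at low levels fall outside this rule and were named after their values were seen.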

Additional observations from a re-analysis of the deposited data

Results flagged for a closer look

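Jag1 differed in direction between classes, with 1 library per group. Its log2 ratio of day 3 over uninjured was -0.76 in EGFP lineage cells, against 1.84 in C1q macrophages and 0.87 in osteoclasts, and the difference was not tested. In lineage cells its levels were 4.04 CPM at day 3 and 6.86 CPM uninjured. Over the 13 other settings in which the lineage ratio could be had, it lay between -0.99 in male cells and -0.36 at resolution 0.5. In macrophages the cells of cluster 3, which holds both libraries, gave -0.094 with 2 day-3 UMIs, and the other day-3 macrophages lay in clusters 0, 1, 2, 7 and 10.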

How the results depend on the processing

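No paired analysis was possible because each group is 1 library. Hes1 in lineage cells kept its direction and 2-fold difference in 13 of 13 settings (log2 ratio 2.19 to 2.45), Rbpj in lineage cells in 14 of 14 (1.83 to 2.72), and Notch1 in osteoclasts in 13 of 13 (1.63 to 3.03). Settings chosen after seeing the data are clusters that hold both libraries, cluster 8 as osteoclasts, and leaving out lineage clusters 18 and 21 or the shallow macrophage cluster 1. In clusters that hold both libraries (18, 3 and 11) the log2 ratios of Notch1 and Jag1 in C1q macrophages were -0.099 and -0.094, with 3 and 2 day-3 UMIs. Of the 9 genes 1 was then higher in lineage cells, 0 in C1q macrophages and 2 in osteoclasts. Of the pathway genes 1 was lower in lineage cells, and 4 were higher and 3 lower in C1q macrophages. The osteoclast count of the 9 genes was 2 when thinned to 3000 UMIs, at a mitochondrial limit of 20%, with libraries clustered apart and at resolutions 0.5 and 2, 3 with no doublet removal, with cluster 8 as osteoclasts and at 1.5-fold, and 0 at a minimum of 50 CPM. For the pathway genes, TMM scaling gave 5 higher and 1 lower in C1q macrophages, thinning gave 1 lower in osteoclasts, and equal weight per cell gave 1 lower in lineage cells. With no minimum level 2 of the 9 genes were lower in lineage cells, and pathway genes were 8 higher and 7 lower in lineage cells, 2 lower in C1q macrophages and 4 lower in osteoclasts. At a minimum of 50 CPM 2 were higher and 1 lower in lineage cells, 4 higher in C1q macrophages and 3 higher in osteoclasts. At 1.5-fold 8 were higher and 5 lower in lineage cells, 21 higher and 1 lower in C1q macrophages, and 16 higher and 1 lower in osteoclasts. Of all genes, 16.6%, 31.9% and 18.7% were higher and 6.93%, 6.14% and 5% lower at 50 CPM, and 32.2%, 52.8% and 39.7% higher and 15.6%, 11.3% and 12.4% lower at 1.5-fold, in lineage cells, C1q macrophages and osteoclasts. With TMM scaling 12.9% were higher and 13.1% lower in C1q macrophages. In lineage cells 15.4% were higher and 7.29% lower with that scaling, and in osteoclasts 10.9% and 9.15%. Shares under the other settings were not computed, so the counts given for those settings have no background beside them. A minimum or fold changes these counts by construction, and for the other settings the cause was not tested. Depth limits Hey1, Heyl and Nrarp in every class, and Notch3 and Hes1 outside lineage cells.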

Other observations

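Myeloid cells outside the 3 classes, found in the day-3 library, also held Notch1. It stood at 132 CPM in cluster 14, whose markers were those of monocytes (521 cells), 85.6 CPM in neutrophils of cluster 16 (464 cells), 63.8 CPM in cluster 22 with dendritic markers (125 cells) and 44.0 CPM in the myeloid precursors of cluster 19 (288 cells). Jag1 was 23.2 CPM in cluster 14, against 3.49 CPM (6 UMIs) in neutrophils and 1.01 CPM (4 UMIs) in the precursors. Rbpj was 220 CPM in the monocyte cluster and 195 CPM in the dendritic one, against 49.5 CPM in neutrophils and 71.3 CPM in the precursors. Hes1 was between 1.75 and 2.86 CPM in these clusters, from 3 to 8 UMIs each.

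Of the clusters left unnamed, 8, 12 and 17 lay between the classes. Cluster 8 (863 day-3 cells), between osteoclasts and macrophages in its markers, held Notch1 at 38.2 CPM, Jag1 at 22.3 CPM and Rbpj at 252 CPM, each above osteoclast cluster 11 and below the large macrophage clusters of that library. With cluster 8 counted as osteoclasts, the osteoclast log2 ratio of Jag1 was 1.40, against 0.87 without it. That of Rbpj was 1.47, against 0.71. Cluster 17 (400 day-3 cells), with mesenchymal genes and macrophage markers together, held Hes1 at 92.4 CPM and Notch1 at 69.2 CPM. Cluster 12 (629 uninjured cells), with both kinds of markers too, held Hes1 at 9.25 CPM and Notch1 at 17.6 CPM. Whether clusters 12 and 17 are mixed barcodes was not tested. Cluster 23 (87 day-3 cells) scored as contractile and was left unnamed because Cdh5, an endothelial marker, was among its leading genes. It held EGFP at 1429 CPM, Notch2 at 85.6 CPM and Hes1 at 84.3 CPM.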
